A study of Mus musculus with 4 samples.

Results

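The genes of the proteasome and its named regulators were followed in wild-type and Gcn5-deleted mouse embryonic stem cells. They were taken as all entries whose symbol starts with Psma, Psmb, Psmc, Psmd, Psme, Psmf or Psmg and a digit, without the 2 inducible beta subunits of the major histocompatibility locus and without pseudogenes. The rule found 47 of 23259 genes, each listed in all 4 libraries. They comprise 8 alpha and 9 beta subunits of the core, 6 ATPases and 11 other subunits of the regulatory particle, 3 chaperones of its base, 4 activators with 1 inhibitor, 4 assembly factors of the core, and Psmc3ip, which carries the name but encodes a recombination factor and no proteasome subunit.

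RNA came from 4 clones. A plasmid for an EGFP-Cre fusion under the EF1α promoter was put transiently into Gcn5 flox/flox stem cells of 2 founder lines, 4 and 6 as the clone names give them, and GFP-positive and GFP-negative cells were separated after 72 hours. WT clones 4-1 and 6-1 were picked from the GFP-negative cells and still carry the floxed alleles, and KO clones 4C2 and 6C4 were picked from the GFP-positive cells and lack exons 3 to 18 of both Gcn5 alleles. Each library is therefore 1 picked colony, replicate 1 of each genotype is from line 4 and replicate 2 from line 6, and all clones went through transfection and sorting. All were male, grown on mitomycin-treated embryonic fibroblasts with 15% serum and 1000 U/mL LIF. The question of the comparison was which expression levels differ without Gcn5, an acetyltransferase of coactivator complexes encoded by Kat2a.

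The proteasome degrades proteins tagged with ubiquitin. Its core is a stack of alpha rings, which gate the entry, and beta rings, which hold the cutting sites of Psmb5, Psmb6 and Psmb7. The regulatory particle on top has a base with ATPases that unfold the substrate and a lid that removes ubiquitin, while other caps such as the Psme activators open the core without ubiquitin. Some subunits have alternative forms, such as Psmb10 in place of Psmb7 in immune cells, Psmb11 in place of Psmb5 in the thymus and Psma8 in place of Psma7 in male germ cells. Stem cells are known for high proteasome activity, and the transcription factor Nfe2l1 raises the subunit genes together through antioxidant response elements.

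The values are FPKM, fragments per kilobase of transcript and sequencing depth, scaled by the authors to spike-in RNA, so levels can be compared between genes, and the depth behind them is unknown. The summed FPKM of all genes lay between 520491 and 757931 per library. The gene-level value of Kat2a, which includes any exon outside the deletion, stood at 38.7 and 34.4 FPKM in WT replicates 1 and 2 and at 11.5 FPKM in each KO replicate (log2 fold change -1.58, SE 0.23, limma adjusted p = 0.0112). All 8 stem cell markers examined were present, with Pou5f1 between 454 and 782 FPKM. Markers of fibroblasts, which the feeder layer would bring, summed to 140.4 to 198 FPKM over 10 genes, with all 10 detected. S100a4 made up 91.7 of 164 FPKM in WT and 98.9 of 198 FPKM in KO of line 6. In line 4 it made up 47.1 of 188 FPKM in WT and 33.7 of 140.4 FPKM in KO. Lum lay between 0.339 and 1.98 FPKM. Markers of blood cells summed to 1.07 to 3.78 FPKM over 4 genes. Of these Ptprc lay at 0.0155 FPKM or less, Cd3e between 0.186 and 0.35 FPKM and Cd79a between 0.509 and 0.694 FPKM, and Lyz2 was at 2.36 and 2.87 FPKM in WT and KO of line 4 and 0.125 and 0.814 FPKM in WT and KO of line 6. P-values rest on the spread between the 2 clones of a group, drawn towards the spread of all genes of like level. The prior df, the weight of that shared spread, was 16.4 for KO against WT. In bulk RNA, fewer cells of a type and less RNA per cell cannot be told apart.

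Promoter windows were searched for elements known from proteasome genes, and the shares found for the first and the second were near those of all promoters. In the RefSeq table of GRCm38.p6, 39 of the 47 genes had a window, 42 windows in all, here cut to the 250 bases before the start; the deposited values rest on mm9 and share no coordinates with them. The antioxidant response element was searched as TGACNNNGC on both strands. It stood in 5 member windows (11.9%), against 10.2% of all 32851 windows of that length, so its share was near that of any promoter. The CCAAT box, searched as CCAAT on both strands, stood in 14 member windows (33.3%) and 33.9% of all windows. The interferon-stimulated response element, searched on both strands as GAAA, any 2 bases and GAAA again, and added after the values were seen, stood in 3 member windows (7.14%), those of Psmb3, Psmd4 and Psmd9, against 2.98% of all windows. It was absent from the windows of Psme1, Psme2 and Psmb10, and a link to interferon was not tested. The 5 windows with an antioxidant element are shown because they are the ones whose letters match, with that element in capitals. They belong to Psmb5 (chr14:54617996-54618245, minus strand), Psmb6 (chr11:70525107-70525356, plus strand), Psmc6 (chr14:45329574-45329823, plus strand), Psmd12 (chr11:107479278-107479527, plus strand) and Psmd9 (chr5:123227940-123228189, plus strand). Each is written 5′ to 3′ in the direction of its gene.
Psmb5: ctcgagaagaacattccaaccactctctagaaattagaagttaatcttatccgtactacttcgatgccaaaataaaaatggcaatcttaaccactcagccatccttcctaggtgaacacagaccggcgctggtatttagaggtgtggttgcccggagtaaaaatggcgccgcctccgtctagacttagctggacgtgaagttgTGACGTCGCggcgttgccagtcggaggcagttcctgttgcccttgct
Psmb6: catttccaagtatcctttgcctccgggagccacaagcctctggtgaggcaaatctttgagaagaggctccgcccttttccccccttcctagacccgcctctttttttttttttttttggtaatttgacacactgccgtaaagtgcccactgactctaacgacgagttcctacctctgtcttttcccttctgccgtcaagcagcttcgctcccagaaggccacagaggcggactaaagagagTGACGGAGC
Psmc6: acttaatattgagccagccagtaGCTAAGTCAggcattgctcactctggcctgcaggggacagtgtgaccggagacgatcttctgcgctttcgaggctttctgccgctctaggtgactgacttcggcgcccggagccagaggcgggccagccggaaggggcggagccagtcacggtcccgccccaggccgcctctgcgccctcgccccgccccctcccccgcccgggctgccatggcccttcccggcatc
Psmd12: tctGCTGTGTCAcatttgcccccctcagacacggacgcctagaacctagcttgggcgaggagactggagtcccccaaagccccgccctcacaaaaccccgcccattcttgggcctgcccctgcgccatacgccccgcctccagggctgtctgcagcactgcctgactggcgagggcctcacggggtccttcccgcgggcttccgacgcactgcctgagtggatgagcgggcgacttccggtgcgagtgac
Psmd9: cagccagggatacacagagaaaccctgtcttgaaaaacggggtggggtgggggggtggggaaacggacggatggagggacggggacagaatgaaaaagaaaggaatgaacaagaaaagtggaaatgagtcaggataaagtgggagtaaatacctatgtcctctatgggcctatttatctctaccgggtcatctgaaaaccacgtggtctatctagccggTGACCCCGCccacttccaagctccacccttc
The element runs with the gene in Psmb5, Psmb6 and Psmd9, with its first printed base at -47, -9 and -31 from the start, and against it in Psmc6 and Psmd12, at -227 and -247. A match is a description of the letters, not evidence of binding.

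Proteasome genes were among the most abundant transcripts of these cells, and their order was nearly the same in each clone. The median member ranked above 93.9% to 94.7% of the 11932 tested genes, depending on the library, and 31 or 32 of 46 tested members ranked at or above the percentile of 90, which 10% of genes reach by construction. The 14 constitutive core subunits stood within 2.02-fold to 2.31-fold of each other in each library. Their median was 235 FPKM in WT replicate 1, 240.4 in WT replicate 2, 174 in KO replicate 1 and 204 in KO replicate 2. The median of the 17 base and lid subunits was lower, at 153, 154, 108 and 129 FPKM in the same order, so the core stood 1.54 to 1.62 times above the regulatory particle in each library. Ranks of the 47 genes correlated between libraries with a Spearman's rho of 0.981 to 0.995, a description over genes that share their lengths and the laboratory's processing.

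Within the core, Psma2, an outer ring subunit, was the highest alpha gene, at 323 and 362 FPKM in WT replicates 1 and 2 and 245 and 287 FPKM in KO replicates 1 and 2. Psmb7, the subunit with trypsin-like activity, led the beta genes at 325 and 352 FPKM in WT and 253 and 291 FPKM in KO. Both genes were lower in each KO clone than in either WT clone. Psmb5, the subunit with chymotrypsin-like activity and the target of proteasome inhibitors such as bortezomib, was the lowest of the constitutive core genes over the libraries, at 147 and 179 FPKM in WT and 109.6 and 134 FPKM in KO. In the regulatory particle Psmc6 was the highest ATPase, at 203 and 221 FPKM in WT and 147 and 164 FPKM in KO, and Psmc2 the lowest, at 86.4 and 96.1 FPKM in WT and 63.2 and 88.2 FPKM in KO. The ATPases form a ring with 1 copy of each, and their transcripts differed by 1.91-fold to 2.35-fold within a library. Psmd2, a scaffold of the base that binds ubiquitin carriers, was the highest of the other subunits, at 221 and 207 FPKM in WT and 159.9 and 167 FPKM in KO. Psmd11, a lid subunit, was the lowest of them, at 76.3 and 69.8 FPKM in WT and 51.0 and 61.7 FPKM in KO.

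Most factors that act on the proteasome stood below most of its subunits, while Psme4 exceeded the lid subunit Psmd11 in every library. Psmf1, known as the inhibitor PI31, was listed at 8.67 and 6.64 FPKM in WT and 6.07 and 5.67 FPKM in KO. Among base chaperones, which leave the finished particle, Psmd5 was highest, at 65.1 and 54.0 FPKM in WT and 49.4 and 44.6 FPKM in KO, and Psmd9 lowest, at 10.2 and 10.8 FPKM in WT and 6.29 and 9.49 FPKM in KO. Of the 4 assembly factors that pair up to order the alpha ring, Psmg1 was highest, at 71.9 and 72.6 FPKM in WT and 55.9 and 61.4 FPKM in KO. Psmg3 was lowest, at 18.1 and 16.2 FPKM in WT and 12.2 and 14.6 FPKM in KO. In relation to the core median, Psmg1 stayed between 30.1% and 32.1% and Psmg3 between 6.73% and 7.73% in the 4 libraries. The plot of levels by gene shows these steps.

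**Figure D1:**
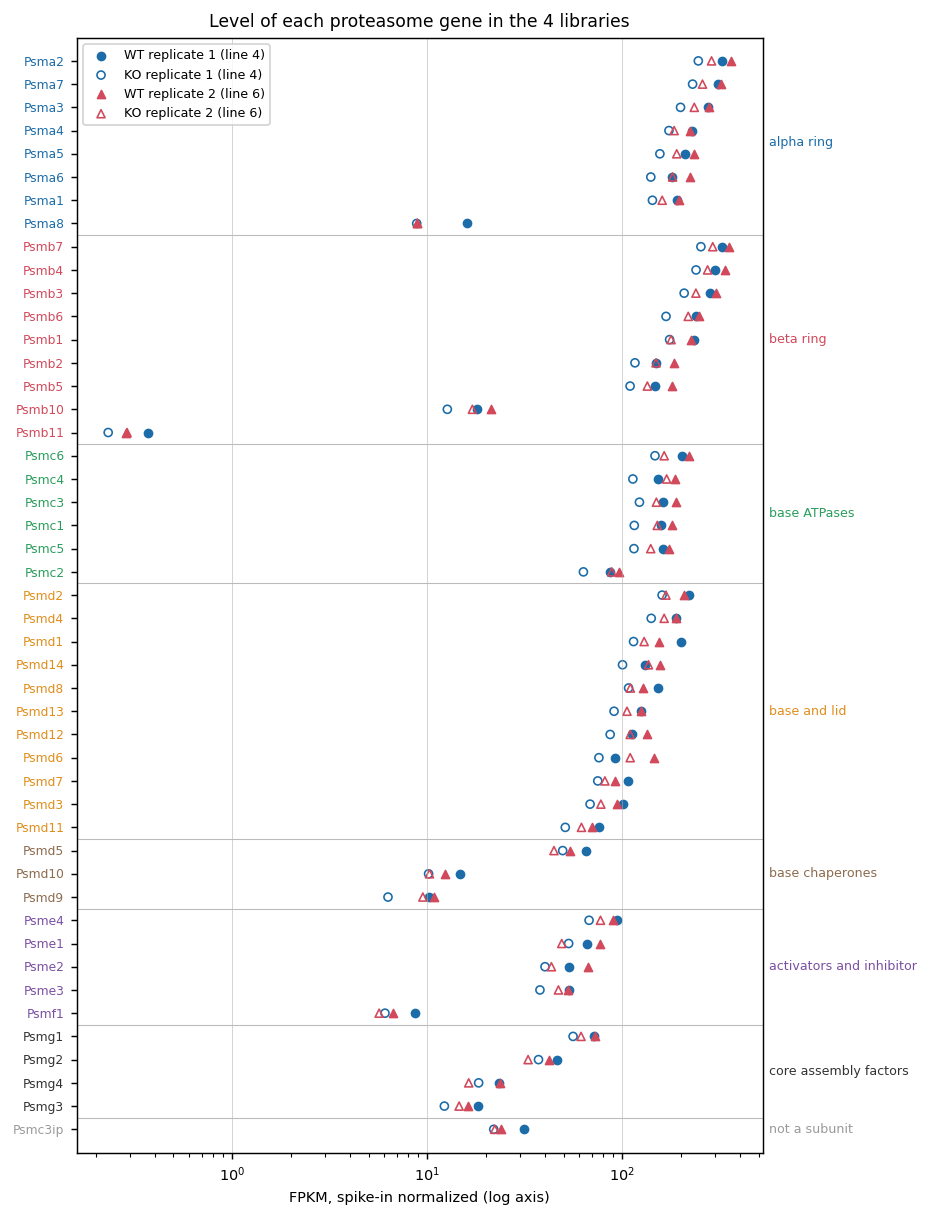
Each row is 1 gene, grouped by role, and the log axis gives its spike-in normalized FPKM in the 4 libraries (filled symbols WT, open symbols KO, circles line 4, triangles line 6). Constitutive subunits cluster at the right, while Psma8, Psmb10 and Psmb11 stand apart from their rings, and KO replicate 1 is the lowest library for most genes.

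The alternative forms of core subunits that the rule kept, Psma8, Psmb10 and Psmb11, were minor in these cells. The 2 inducible beta subunits left out by the rule were not examined. Psma8 stood at 16.0 FPKM in WT replicate 1, and at 8.83, 8.81 and 8.91 FPKM in KO replicate 1, WT replicate 2 and KO replicate 2, so WT replicate 1 stood apart. Psma7, the subunit it can replace, was listed at 308 and 319 FPKM in WT and 229 and 258 FPKM in KO. Psma8 therefore made 2.76% to 5.21% of the Psma7 level. Psmb10 was listed at 18.1 and 21.1 FPKM in WT and 12.7 and 17.04 FPKM in KO, and its level against Psmb7 was steadier, between 5.02% and 6.00%. Psmb11 was the only member under the minimum of 1 FPKM, at 0.369 and 0.286 FPKM in WT and 0.231 and 0.289 FPKM in KO, or 0.16% to 0.252% of Psmb5, and was not tested.

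**Figure D2:**
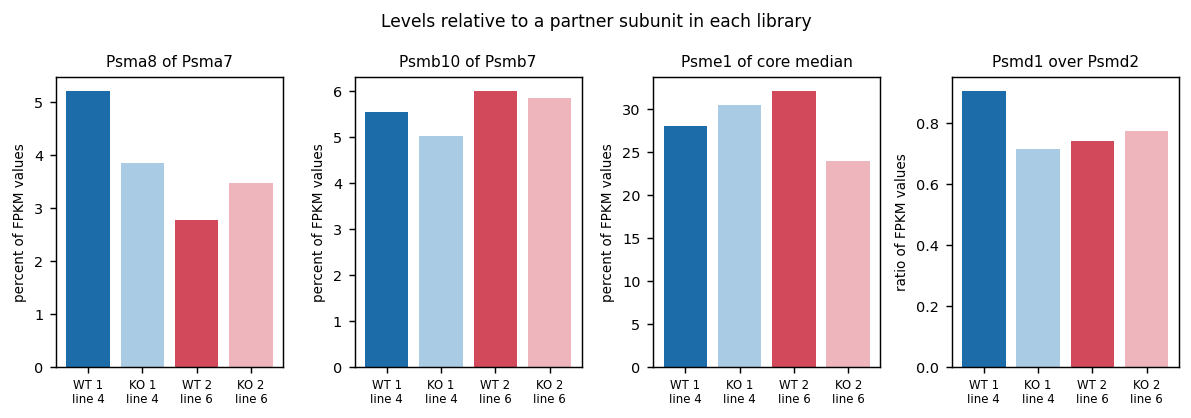
Bars give, for each library, the FPKM of Psma8 as a percentage of Psma7, of Psmb10 as a percentage of Psmb7, of Psme1 as a percentage of the core median, and the ratio of Psmd1 to Psmd2. WT replicate 1 has the highest Psma8 share (5.21%) and the highest Psmd1 ratio (0.903), and KO replicate 2 the lowest Psme1 share (24.0%).

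In KO, the proteasome genes were listed lower as a group and by about as much as the median gene. Fits were made on log2(FPKM + 1), a scale on which fold changes of low genes come out too small. The log2 fold changes of the 46 tested members lay between -0.52 and -0.28, with a median of -0.35, against -0.32 for all 11932 tested genes. No member passed the test over all genes (limma adjusted p of 0.445 for all 46), and 0.0168% of tested genes did. At an unadjusted p under 0.05, 4 members were lower and 0 higher (limma), which is 8.70% of members against 5.46% of tested genes lower. With the founder line as a block, again 0 members passed (lowest limma adjusted p = 0.178). The prior df of the block fit was infinite, so all genes of like level received the same spread there. Both KO libraries lay below both WT libraries in 39 members (84.8%), against 59.8% of tested genes, and 45 members (97.8%) were lower in KO in both lines, against 86.3%. With each library centred on its median the members' median was -0.042, and with quantile normalization it was 0.029.

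Among the genes that passed the filter, most members lay close to the median gene. A member's KO minus WT difference, less that of the median gene (-0.44 in line 4 and -0.19 in line 6 on the log2 scale), was within 0.2 in both lines for 38 members (82.6%), against 65.4% of tested genes. Shares here and above were not matched for level: the median mean was 127.5 FPKM for tested members and 9.68 FPKM for all tested genes. In line 4, 22 members (47.8%) lay below the median gene, against 50% by construction, and the members' median was 0.0072. In line 6, 37 members (80.4%) lay below it, again against 50%, with a median of -0.085. Each line has 1 clone of each genotype, so neither these medians nor their difference could be tested. With quantile normalization the median in line 6 was -0.0015. Against the median of all 23259 genes, without the filter, the members' medians were -0.22 in line 4 and -0.21 in line 6. That reference includes the genes that averaged under 1 FPKM, whose differences come out too small on this scale. Fibroblast markers differed by genotype within the lines: their sum went from 188 FPKM in WT to 140.4 FPKM in KO in line 4 and from 164 to 198 FPKM in line 6, and the 9 tested of 10 lay at a median of 0.058 and 0.46 relative to the median gene. Their part in the proteasome values was not tested.

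Most core genes lay on opposite sides of the median gene in the lines. In line 4, 2 of the 14 constitutive core subunits lay below the median gene, and in line 6 all 14 did, with medians of 0.035 and -0.11 relative to it. For 12 of them this meant above the median gene in line 4 and below it in line 6, a pattern of 23 of all 46 tested members (50.0%) and of 22.9% of tested genes. Psmb5 went from 147 to 109.6 FPKM in line 4 and from 179 to 134 FPKM in line 6, KO/WT ratios of 0.748 and 0.751. The ratio was thus alike in the lines while the median gene's differed, which put Psmb5 at 0.029 and -0.23 relative to it. In the fit it had a log2 fold change of -0.41, with an SE of 0.21 and a limma adjusted p of 0.445. Psmb7 had KO/WT ratios of 0.777 and 0.825 and a log2 fold change of -0.32. Psma2 had ratios of 0.759 and 0.791 and a log2 fold change of -0.37, and Psma7 ratios of 0.745 and 0.808 and a log2 fold change of -0.37 (limma adjusted p = 0.445 for each). Psmb10 had ratios of 0.702 and 0.806 and a log2 fold change of -0.39. The log2 fold changes of the remaining alpha genes lay between -0.36 for Psma5 and -0.33 for Psma6, and those of the remaining beta genes between -0.39 for Psmb3 and -0.31 for Psmb4.

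Psma8 was the 1 tested member with opposite directions in the lines. It went from 16.0 to 8.83 FPKM in line 4, a KO/WT ratio of 0.551, and from 8.81 to 8.91 FPKM in line 6, a ratio of 1.012. Its log2 fold change came to -0.39 (SE 0.28, limma adjusted p = 0.445), and without WT replicate 1 it was 0.0092. The value rests on WT replicate 1. Markers of spermatocytes were present in all libraries, and their sum was also highest in WT replicate 1. The sum over 4 genes was 50.2 FPKM there and 36.4 FPKM in KO replicate 1. It was 27.8 FPKM in WT replicate 2 and 24.6 FPKM in KO replicate 2. The summed FPKM of all genes was highest in WT replicate 1 as well, at 757931. Whether the markers bear on Psma8 was not tested.

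In the regulatory particle, Psmd1, the base scaffold that holds the ubiquitin receptor Adrm1, had the lowest log2 fold change of all members. Its level was 199.6 FPKM in WT replicate 1, 154 in WT replicate 2, 114 in KO replicate 1 and 129 in KO replicate 2. Both KO values lay below both WT values, and the KO/WT ratio was 0.572 in line 4 and 0.843 in line 6. In the fit over 4 libraries it had a log2 fold change of -0.52 (SE 0.21, limma adjusted p = 0.445, unadjusted p = 0.0227), which lay between -0.71 and -0.33 when a library was left out and at -0.22 after centring. Relative to the median gene it lay at -0.36 in line 4 and -0.060 in line 6. Its partner scaffold Psmd2 had ratios of 0.724 and 0.807, so the ratio of Psmd1 to Psmd2 was 0.903 in WT replicate 1 and 0.714 to 0.773 in the other libraries.

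Of the other ATPases and base and lid subunits, Psmc6 and Psmd6 lay beyond 0.2 from the median gene, both in line 6, at -0.24 and -0.21. Psmc6, an ATPase, had the lowest log2 fold change among the 6, -0.44 (SE 0.20, limma adjusted p = 0.445, unadjusted p = 0.0382), with KO/WT ratios of 0.725 and 0.742. The 4 members with the highest log2 fold changes included 3 of this particle. The ATPase Psmc4 was listed at 153 and 187 FPKM in WT and 113 and 169 FPKM in KO (log2 fold change -0.29), and Psmc2 had one of -0.28. Psmd14, the lid enzyme that cuts ubiquitin off the substrate, was listed at 131 and 156 FPKM in WT and 100.2 and 136 FPKM in KO (log2 fold change -0.29). In these 3 genes KO replicate 2 stood above WT replicate 1, so the genotypes overlapped. Psmg1, the fourth, had a log2 fold change of -0.30 with no overlap (limma adjusted p = 0.445 for all 4). On centred values all 4 were slightly above 0, at 0.0083 to 0.022. Psmd11 had KO/WT ratios of 0.668 and 0.885, and the chaperone Psmd9 had ratios of 0.616 and 0.879. The 3 remaining ATPases had log2 fold changes between -0.40 for Psmc5 and -0.35 for Psmc1, and the 6 remaining base and lid subunits, apart from Psmd6, between -0.41 for Psmd3 and -0.31 for Psmd4. At least 1.5-fold lower on the log2(FPKM + 1) scale in line 4 were Psma8, Psmd1 and Psmd9 (6.52% of members), against 16.1% of tested genes.

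The paired activators Psme1 and Psme2 had the lowest KO/WT ratios in line 6. They encode the alpha and beta chains of 1 heteromeric cap, known as PA28, which is induced by interferon gamma and opens the core for peptide production. The level of Psme1 was 65.6 FPKM in WT replicate 1, 77.1 in WT replicate 2, 53.1 in KO replicate 1 and 48.9 in KO replicate 2. Psme2 was listed at 53.5 and 67.0 FPKM in WT and 40.1 and 43.3 FPKM in KO. For both genes WT replicate 2 was the highest library and the KO libraries lay below both WT libraries. The KO/WT ratio of Psme1 was 0.808 in line 4 and 0.634 in line 6, and that of Psme2 was 0.751 and 0.646. Relative to the median gene Psme1 lay at 0.14 in line 4 and -0.46 in line 6, and Psme2 at 0.040 and -0.43. They were the 2 members (4.35%) lower by at least 1.5-fold in line 6, where 1.5% of tested genes were. Over the 4 libraries the log2 fold change was -0.47 for Psme1 (SE 0.21, unadjusted p = 0.0397) and -0.51 for Psme2 (SE 0.22, unadjusted p = 0.0317), with limma adjusted p = 0.445 for both and 0.232 and 0.214 with the block.

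The 2 genes kept their proportion to each other, with Psme1 at 1.13 to 1.32 times Psme2 in each library. As a share of the core median, Psme1 was 28.0% in WT replicate 1, 30.5% in KO replicate 1, 32.1% in WT replicate 2 and 24.0% in KO replicate 2. The other caps lay near the median gene in both lines. Psme3, the nuclear homologue PA28 gamma, was listed at 53.1 and 52.6 FPKM in WT and 37.8 and 47.0 FPKM in KO, and lay at -0.034 and 0.028 relative to the median gene. Psme4, known as PA200, was listed at 93.4 and 89.3 FPKM in WT and 67.5 and 77.3 FPKM in KO, and lay at -0.018 and -0.022. The inhibitor Psmf1 had KO/WT ratios of 0.700 and 0.854 and lay at -0.0074 and -0.011 relative to the median gene. Among assembly factors Psmg4 had the largest distance in line 6, at -0.33, and 0.12 in line 4, from 23.3 and 23.7 FPKM in WT to 18.3 and 16.3 FPKM in KO; it was chosen after its values were seen. Psmc3ip, the recombination factor, was listed at 31.2 and 23.9 FPKM in WT and 21.9 and 22.2 FPKM in KO (log2 fold change -0.30), and lay at -0.048 and 0.082 relative to the median gene.

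**Figure D3:**
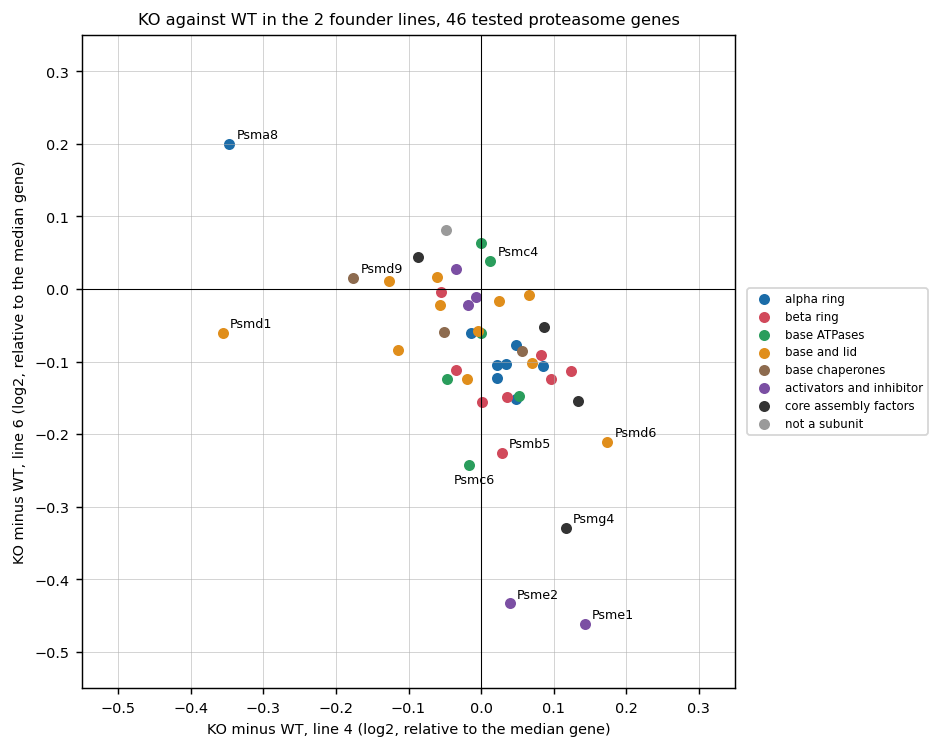
Each point is 1 of 46 tested genes, coloured by role, with its KO minus WT difference on the log2(FPKM + 1) scale less that of the median gene, in line 4 on the horizontal axis and line 6 on the vertical axis. Most points lie within 0.2 of 0 on both axes, Psmd1 and Psma8 lie to the left at -0.36 and -0.35, and Psme1 and Psme2 lie lowest at -0.46 and -0.43.

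Between the founder lines, proteasome genes stood somewhat higher in line 6, and no member passed the test as deposited. The log2 differences of line 6 against line 4 lay between -0.39 for Psma8 and 0.59 for Psmd6, with a median of 0.12, against -0.013 for all tested genes. The lowest limma adjusted p was 0.734, while 1.98% of tested genes passed. At an unadjusted p under 0.05, limma gave 0 members higher and 0 lower in line 6, against 3.46% and 5.16% of tested genes. In both genotypes 27 members (58.7%) were higher in line 6, against 30.8% of tested genes. Relative to the median gene 30 members (65.2%) were above it in both genotypes, against 40.1%, with medians of 0.19 in WT and 0.083 in KO. This fit counts the KO to WT difference within a line as spread, and its prior df was infinite, so all genes of like level received the same spread. Cell type markers differed between the lines as well. Stem cell markers had a median line difference of -0.29, and the 9 tested fibroblast markers one of -0.35. Of the stem cell markers 7 of 8 lay below the median gene in both genotypes, against 4784 of 11932 tested genes. Of the fibroblast markers S100a4 passed as higher in line 6 (1.24, limma adjusted p = 0.0289). Lyz2, a blood cell marker at 0.125 and 0.814 FPKM in line 6, passed as lower (-1.34, limma adjusted p = 5.2e-06). With genotype as a second term S100a4 again passed as higher (limma adjusted p = 4.7e-08). Col3a1, Postn and Dcn then passed as lower (-0.98, -0.76 and -0.67, limma adjusted p = 0.000296, 0.0114 and 0.0270). The part of all these markers in the proteasome values was not tested.

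The call on the lines turned with the scaling. With each library centred on its median 11 members passed, all higher in line 6 (23.9% of members, against 16.4% of tested genes higher and 13.8% lower), and with quantile normalization 17 did, again all higher (37.0%, against 16.1% higher and 16.3% lower). The 11 were Psma6, Psmb2, Psmb6, Psmb10, Psmc1, Psmc2, Psmc4, Psmd6, Psmd9, Psmd12 and Psmd14. The members' median difference was 0.34 without WT replicate 1, -0.019 without WT replicate 2, -0.097 without KO replicate 1 and 0.26 without KO replicate 2. With 1 library left out, its line holds 1 genotype only, so line and genotype are mixed in these medians.

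Psmd6, a lid subunit, differed most between the lines. Its level was 91.7 and 75.9 FPKM in WT and KO of line 4, and 145 and 109.7 FPKM in WT and KO of line 6. Both line 6 clones stood above both line 4 clones, at 1.58 times in WT and 1.45 times in KO. The log2 difference was 0.59 (SE 0.36, limma adjusted p = 0.734; 0.0265 with genotype as a second term, which 9.13% of tested genes passed; 0.0106 on centred values). Its ratio to Psmd12, another lid subunit, was 0.814 and 0.876 in line 4 and 1.08 and 1.00 in line 6. Psmc4 stood at 1.22 times in WT and 1.49 times in KO, and Psmb2, a core subunit, at 1.25 and 1.28 times, from 148 and 116 FPKM in line 4 to 185 and 149 FPKM in line 6. Their log2 differences were 0.43 and 0.34 (limma adjusted p = 0.945 and 0.999; 0.0077 and 0.027 on centred values). Psmd14 had a log2 difference of 0.35. These 4 genes, Psma6 and Psmc2 are the 6 members (13.0%) whose line 6 values both exceeded both line 4 values, against 16.3% of tested genes, and 0 members lay entirely below in line 6, against 17.4%.

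At the other end stood Psma8 at -0.39, Psmf1 at -0.21, Psmd5 at -0.20 and Psmc3ip at -0.18 (limma adjusted p = 0.945 for Psma8 and 0.999 for the others). Psma8 passed without KO replicate 1 (log2 difference -0.79, limma adjusted p = 0.0174, a setting in which 13.5% of tested genes passed) and stood at 0.0047 without WT replicate 1. Psme1 was higher in line 6 in WT, at 1.17 times, and lower in KO, at 0.921 times. Psmd1 went the other way, with 0.769 times in WT and 1.13 times in KO.

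**Figure D4:**
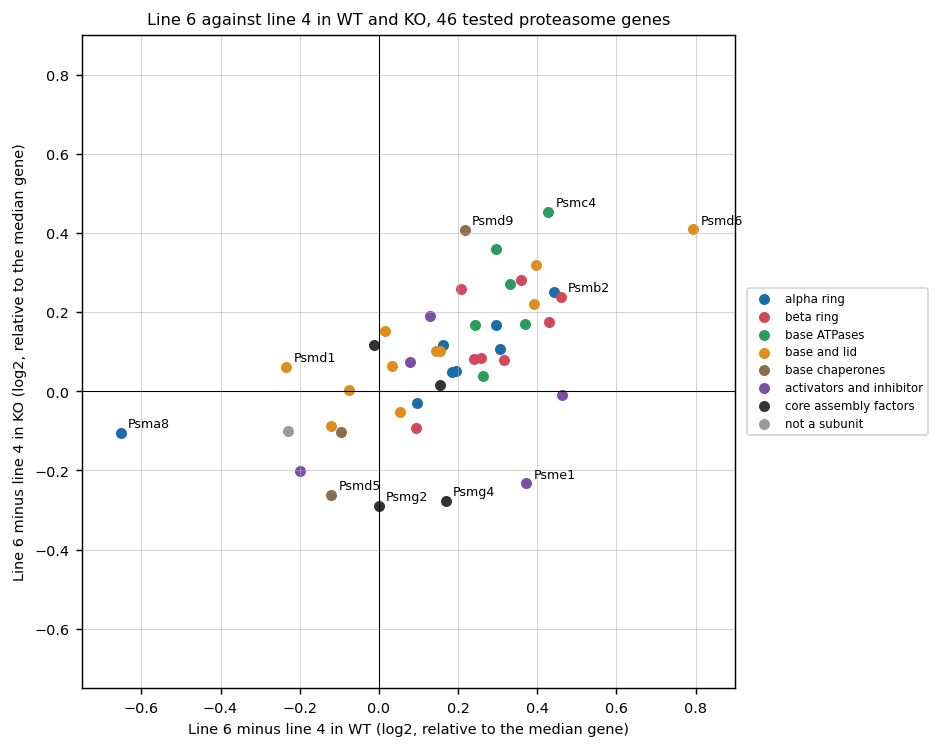
Each point is 1 of 46 tested genes with its line 6 minus line 4 difference on the log2(FPKM + 1) scale less that of the median gene, in WT on the horizontal axis and KO on the vertical axis. Psmd6 lies farthest to the right at 0.79 and Psmc4 highest at 0.45, 30 genes lie above 0 on both axes, and Psma8 lies farthest to the left at -0.65.

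Other genes of the pathway had medians in KO close to those of the subunits and of all genes. Of 16 partners and assembly factors without a Psm name 15 were found and tested, and 0 passed in either direction, with a median log2 fold change of -0.33. AI314180, listed under its older symbol and known as the proteasome adaptor Ecm29, was the highest of them at -0.19, with 16.2 and 16.5 FPKM in WT and 12.6 and 16.1 FPKM in KO. Fbxo7, an F-box protein that binds Psmf1, was the lowest at -0.43. Its level was 13.8 FPKM in WT replicate 1, 7.70 in WT replicate 2, 7.63 in KO replicate 1 and 7.18 in KO replicate 2, so here too WT replicate 1 stood apart. Pomp, which matures the core, had a log2 fold change of -0.33, with 199 and 216 FPKM in WT and 149 and 182 FPKM in KO; it and Adrm1 (-0.28) were chosen after their values were seen.

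Of 14 genes in transcriptional control of the proteasome 0 passed, with a median of -0.29. Nfe2l1, the factor that raises subunit genes when the proteasome fails, was the lowest at -0.44 (SE 0.23, limma adjusted p = 0.445). Its level was 39.8 and 31.5 FPKM in WT, and 24.8 and 27.1 FPKM in KO, below both WT libraries in each KO clone. Mafk, a small Maf partner of such factors, was the highest at -0.20, with 6.43 and 8.24 FPKM in WT and 5.42 and 7.07 FPKM in KO. Of 16 genes for ubiquitin, its activation and its carriers 0 passed, with a median of -0.33, from -0.43 for Rps27a, a fusion of ubiquitin with a ribosomal protein, to -0.12 for Ubqln2, a ubiquitin carrier. Rps27a stood at 2136 and 1825 FPKM in WT and 1489 and 1442 FPKM in KO, and Ubqln2 at 5.08 and 7.18 FPKM in WT and 4.04 and 7.33 FPKM in KO. At an unadjusted p under 0.05 limma gave 0 members higher in each list, and 0 lower among the partners and in transcriptional control. In the ubiquitin list 4 of 16 were lower (25%, against 5.46% of tested genes), among them Rps27a and, chosen after their values were seen, the ubiquitin gene Ubb (-0.42) and the activating enzyme Uba1 (-0.42). All 8 stem cell markers lay below the median gene in both lines, against 27.1% of tested genes, at medians of -0.22 in line 4 and -0.085 in line 6.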

How the data were processed

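RNA of 4 clones was sequenced, 2 WT and 2 KO, from founder lines 4 and 6. Each library's deposited file gives 1 FPKM value per gene, scaled by the authors to spike-in RNA, per the file headers. Per the submitters' processing notes, Bowtie 0.12.8, TopHat2 2.0.9, affy, HTSeq, edgeR and build mm9 were used, without stated roles. The sample descriptions list 1 µg of RNA and 2 µL of spike-in mix, diluted 100-fold, for every library. They also list the same cell number for every library, with DNA within 7.5%. How the spike-ins entered the scaling was not stated in the processing notes. Whether the scaled values stand for RNA mass or for cells is therefore unknown, and a change in RNA per cell was not tested. Reads shared with the many processed pseudogenes of proteasome genes may have been split in counting, so levels of single genes are uncertain to that extent.

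Each file held 23376 entries, of which 92 were spike-ins and 25 did not carry a name found in all 4 files. This gave 23259 genes. Read depth is unknown, so no counting interval is given. The 11932 genes that averaged 1 FPKM or more were tested two-sided on log2(FPKM + 1) by a linear model with a trended prior (limma 3.58.1 under R 4.3.3), with Benjamini-Hochberg adjustment over all of them and a threshold of 0.05. KO was compared with WT, and line 6 with line 4, each over all 4 libraries; within a line there is 1 library per genotype and no test. An exact permutation test of 2 against 2 cannot go below p = 0.333. The script was tested on simulated data.

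Replicates with the same number share a founder line, as the clone names give it, so the numbers pair the samples; deviations of WT and KO of the same line correlated at r = 0.70 across genes. The fit without this block is the main one. Alternatives were a pseudocount of 0.1 FPKM, no filter, centring on library medians, quantile normalization, a robust spread, the block, genotype as a second term, and leaving out each library.

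The members and lists were chosen with earlier results of these data known. Values in every library are given for members under 1 FPKM, the highest and lowest of each class, the 4 highest and 4 lowest in each comparison, alternative forms and activators, and the extremes of each other list. Members outside these that are named were chosen after their values were seen. Promoter windows are RefSeq's, of GRCm38.p6. Protein sequences were not used here.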

Additional observations from a re-analysis of the deposited data

Results flagged for a closer look

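Several values differed in sign between the 2 founder lines, while 45 of the 46 tested members were lower in KO in both. Each value is from 1 clone of each genotype per line, so the differences between lines were not tested. As deposited, Psma8 was lower in KO in line 4, at -0.79 on the log2(FPKM + 1) scale, and at 0.0154 in line 6. Psmb11, listed under 0.4 FPKM throughout, was at -0.15 in line 4 and 0.00326 in line 6. Relative to the median gene, the 46 tested members had a median of 0.0072 in line 4 and -0.0846 in line 6. The alpha ring genes had medians of 0.028 and -0.104, the beta ring genes 0.032 and -0.119, and the core assembly factors 0.10 and -0.104.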

How the results depend on the processing

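For KO against WT, 2 genes passed as deposited and 0 without a filter, on centred values or with quantile normalization, 95 with the founder line as a replicate block, 33 when the block was combined with centring, 91 when it was combined with a robust spread, and 0 to 133 without single libraries. Members past the test numbered 0 in all 13 settings, the block included, so it changed no call on a member. The members' median log2 fold change was -0.35 as deposited, -0.042 on centred values, 0.029 with quantile normalization, and -0.47 to -0.25 without single libraries. Relative to the median gene it was -0.22 in line 4 and -0.21 in line 6 without a filter, and -0.0015 in line 6 with quantile normalization. The median gene without a filter includes genes under 1 FPKM, whose differences come out too small on the log2(FPKM + 1) scale. For line 6 against line 4, 236 genes passed as deposited, 0 without a filter, 3602 on centred values, 3865 with quantile normalization, 1089 with genotype as a second term, 3531 with that term on centred values, and 7 to 1607 without single libraries. Members past it numbered 0 as deposited, 11 on centred values with or without the genotype term, 17 with quantile normalization, 1 with the genotype term (Psmd6) and 0 to 1 without single libraries (Psma8 without KO replicate 1). Their median difference ran from -0.097 to 0.34 without single libraries, where line and genotype are mixed. The cause of these shifts was not tested. With 1 library left out, 1 founder line stands alone for a group. Depth is unknown and limits the low genes Psmb11 and Psmf1 most.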

Other observations

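The germ cell form Psma8 can be set beside other genes known from meiosis, described here as values only. Stra8, which is induced at meiotic entry, was listed at 6.91 FPKM in WT replicate 1, 4.16 in KO replicate 1, 3.73 in WT replicate 2 and 3.85 in KO replicate 2. Dmc1, the meiotic recombinase that Psmc3ip assists, was listed at 13.2, 8.80, 7.65 and 7.11 FPKM in the same order, and Sycp3, a protein of the synaptonemal complex, at 28.5, 22.6, 15.2 and 12.8 FPKM. In all 3 WT replicate 1 was the highest library, as for Psma8 and Psmc3ip. Most genes shared this tendency: of 11932 tested genes 11650 were lower in KO than in WT of line 4. Only 3891 were higher in WT of line 6 than in WT of line 4. Stra8, Dmc1 and Sycp3 had log2 differences of line 6 against line 4 of -0.41, -0.50 and -0.82. None passed the test as deposited (limma adjusted p = 0.878, 0.806 and 0.318), while Sycp3 passed with genotype as a second term (limma adjusted p = 0.00299). Sycp1, the other marker on the list, had a difference of -0.082 (limma adjusted p = 0.999). Its levels were 1.52, 0.887, 1.25 and 0.879 FPKM in the same order.

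The members' summed FPKM was 0.844% of that of all genes in WT replicate 1, 0.910% in KO replicate 1, 0.995% in WT replicate 2 and 1.03% in KO replicate 2, so the share was higher in KO than in WT of the same line and higher in line 6 than in line 4. The sum over all genes went from 757931 FPKM in WT to 520491 FPKM in KO in line 4, and from 680168 to 538257 FPKM in line 6. That sum, which abundant genes dominate, is another reference than the median gene, below which 37 tested members lay in line 6.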
